A study of Mus musculus with 9 samples.

Results

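ATP-binding cassette (ABC) transporters were measured as RNA in SB28 glioma cells grown in mouse brain, with and without the microtubule drug BAL101553, and in libraries labelled astrocytes. The genes were taken by name, as every row of the count table whose symbol starts with Abc, a family letter from a to g and a number, which gave 50 genes of 24421 rows. In the experiment described, the C57BL/6 mice were 6 to 8 weeks old at implantation. They carried SB28, a mouse glioma line that expresses GFP and luciferase, placed orthotopically in the brain. The 3 control libraries came from vehicle-treated mice at day 21, and the 3 BAL101553 libraries from mice given the drug by oral gavage, taken at day 33 by one statement and day 35 by another to match tumor volume, so drug and growth time cannot be told apart. Tumor cells were sorted as CD45-, CD11b- and GFP+, whereas the labels of these 6 libraries say whole tissue from brain. The methods describe fewer ex vivo samples per group than this table holds, and the data statement names another deposit, so the harvest days, the gavage and the sort are those described for the experiment and are not stated in the labels of these libraries. The labels of the remaining 3 libraries give the cell type as astrocytes and the treatment as BAL101553. The study's text does not describe them, so it does not say how old their mice were or whether these carried SB28. SB28 is 1 cell line, and no source says whether the libraries of a group came from separate mice, so p-values measure the spread between these libraries only.

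ABC transporters use ATP to move substrates across membranes, and a few members of the family lack membrane segments and act on ribosomes instead. Abcb1 (P-glycoprotein), Abcg2 and several Abcc proteins pump drugs out of cells, and at the blood-brain barrier they limit the entry of many drugs, including microtubule agents such as taxanes and vinca alkaloids. BAL101553 is the prodrug of BAL27862, which disrupts microtubules and acts through the spindle assembly checkpoint. The Abca and some Abcg proteins carry sterols and phospholipids, the Abcd proteins carry fatty acids into peroxisomes or cobalamin out of lysosomes, and 4 Abcb proteins sit in mitochondria.

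Between 22919523 and 34013875 reads were counted on genes per library, and the 50 genes took 0.141 to 0.164% of the counts of the 6 tumor libraries and 0.359 to 0.403% in the libraries labelled astrocytes. Levels are given as CPM, that is, counts divided by the size of the library, with library sizes scaled by TMM (edgeR) over all 9 libraries. Markers set the groups apart: 7 astrocyte markers summed to between 12250 and 15187 CPM in the libraries labelled astrocytes and to at most 974 in the tumor libraries. In the same 3 libraries 6 oligodendrocyte markers summed to between 10282 and 12723 CPM, against 15.3 to 20.6 in the 6 tumor libraries, so these 3 libraries held RNA of more than 1 brain cell type. The sum of 8 microglia markers was 620 to 1248 CPM there, against 198 to 335 in control and 364 to 426 in BAL101553 libraries. Of these 8, Tmem119 was higher in the tumor libraries. In bulk samples, fewer cells of a type and less RNA per cell cannot be told apart.

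Abcb1a and Abcb1b, the 2 mouse genes for P-glycoprotein, lie next to each other on the plus strand (GENCODE vM21, GRCm38), at chr5:8660077-8748575 and chr5:8798147-8866315. Their coding sequences were 88.1% identical over 3819 aligned bases, with an unbroken identical run of 338 bases. Of the 50-base words in the Abcb1a transcript 18.6% also occurred in another gene, as did 19.6% of those of Abcb1b, and the libraries were read at 50 bases. How the counting treated reads that match both genes is not given in the sources used here. The stretch of 75 coding bases with the most differences, at coding positions 1896 to 1970 of Abcb1a and 1905 to 1979 of Abcb1b, is shown because reads from it tell the genes apart, and capitals mark the 28 bases that differ.
Abcb1a: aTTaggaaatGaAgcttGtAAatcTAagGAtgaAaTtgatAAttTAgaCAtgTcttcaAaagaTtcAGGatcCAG
Abcb1b: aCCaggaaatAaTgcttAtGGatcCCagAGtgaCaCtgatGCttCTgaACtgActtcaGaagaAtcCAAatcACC

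The efflux pumps were readily detected in the tumor libraries. Compared between genes as CPM per kilobase of exon, Abcc1 (MRP1, a pump for glutathione conjugates and several drugs) was the highest of the 10 efflux genes in control libraries, at 33.8 ± 7.22 (SD, n = 3), followed by Abcb1b at 15.3 ± 2.84, Abcc4 (MRP4, cyclic nucleotides and organic anions) at 10.7 ± 1.94, Abcg2 (breast cancer resistance protein) at 8.74 ± 1.35 and Abcb1a at 6.32 ± 1.55. Abcc5 (MRP5) stood at 4.23 ± 0.900 and Abcc10 at 0.711 ± 0.175 on the same scale. Abcc1 lay above the other pumps and Abcc10 below these 6 in every control library. The order Abcb1b, Abcc4, Abcg2, Abcb1a also held within every control library, although the ranges of neighboring pairs from Abcb1b down to Abcc5 overlapped between libraries. Abcb1a and Abcc5 changed places in control 2, at 4.54 and 5.06. Abcc3 had at most 15 counts in a tumor library, Abcc2 and Abcb5 had 0 in all 6, and Abcb5 had 0 in all 9.

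**Figure D1:**
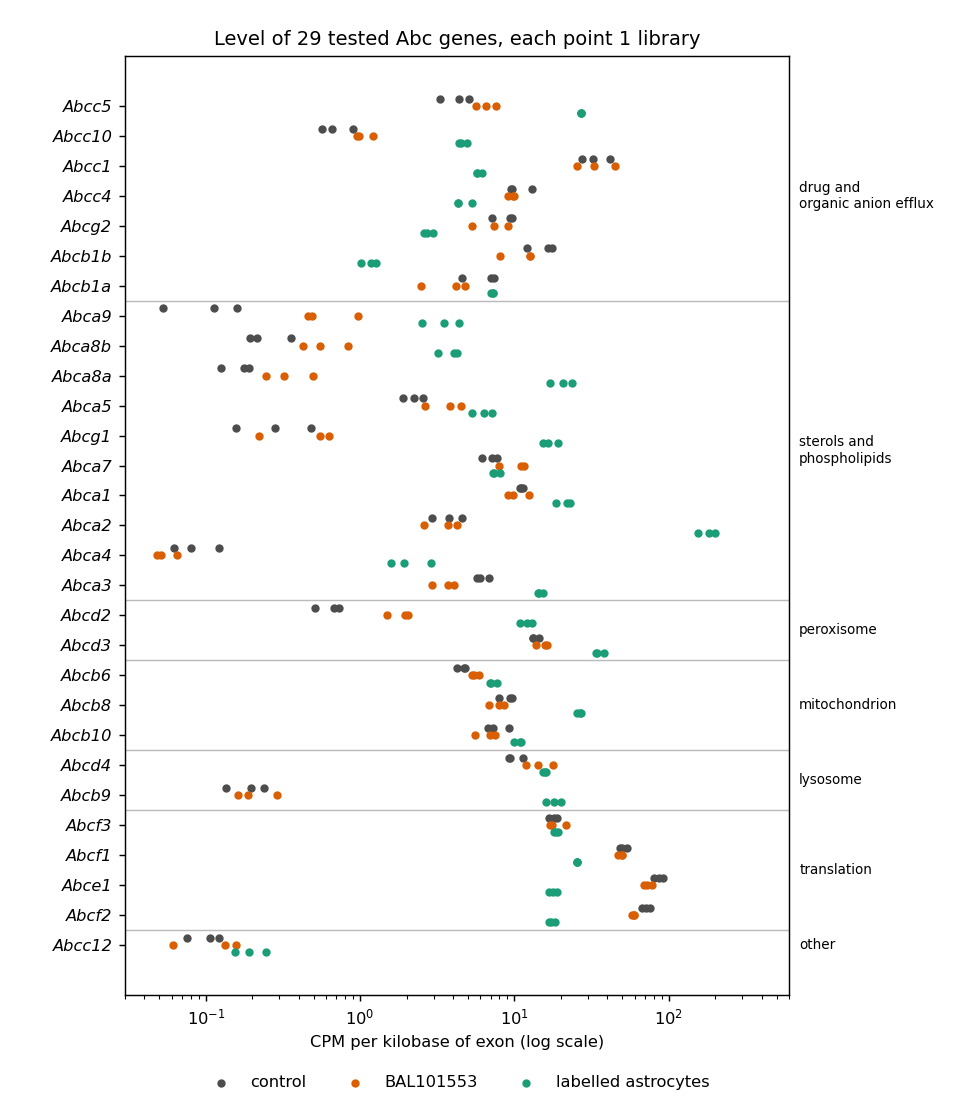
Level of 29 of the 31 Abc genes tested between BAL101553 and control, in CPM per kilobase of exon on a log scale, grouped by role; each point is 1 library of the control (black), BAL101553 (orange) or astrocytes (green) label. Abce1 and Abcf2 lead in the tumor libraries, at 86.1 and 71.3 on average in control, and Abca2 in the libraries labelled astrocytes, at 179.

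BAL101553 against control asks what differs in SB28 cells after growth under the drug. Of the 31 Abc genes with enough counts, 4 were higher and 1 lower (edgeR quasi-likelihood test, Benjamini-Hochberg adjusted p under 0.05 over all 12633 genes tested). That is 16.1% of the genes, near the 14.7% of all genes called (8.64% higher and 6.09% lower), so the family as a whole did not stand out by its share of calls. The median log2 fold change of the 31 was 0.03, against 0.02 over all genes. The higher genes were Abcd2, Abca9, Abca8b and Abcc5, and the lower gene was Abca3. Of the 7 efflux genes tested 1 was higher, of 10 sterol and phospholipid transporters 2 were higher and 1 lower, of 3 peroxisomal transporters 1 was higher, and none of the 4 mitochondrial, 2 lysosomal or 4 translation genes was called by this test, although 4 of these 10 had an unadjusted p under 0.05. Called genes depended on single libraries: without control 1 or without control 3 the count fell from 5 to 1, Abcd2, and without BAL101553 1 it was 3.

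**Figure D2:**
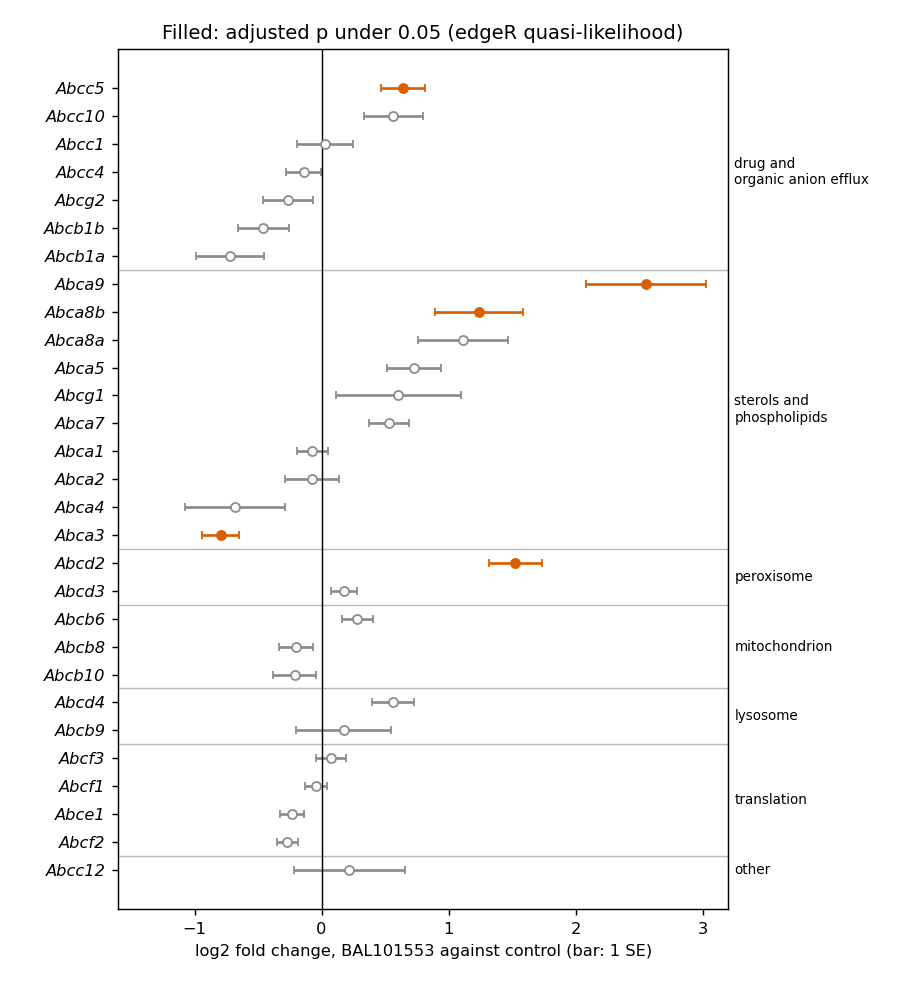
Log2 fold change of BAL101553 against control for 29 of the 31 tested Abc genes, grouped by role, with bars of 1 SE; filled orange points passed an adjusted p of 0.05 and open points did not. Abca9 lies farthest to the right at 2.55, and the pump genes Abcb1a and Abcb1b lie to the left of 0 without passing.

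Among the efflux pumps, Abcc5, which exports cyclic nucleotides and nucleotide analogs, was higher in the BAL101553 libraries. Its level was 20.3, 31.3 and 27.1 CPM in control 1, 2 and 3, and 47.1, 34.998 and 40.3 in BAL101553 1, 2 and 3. All 3 BAL101553 libraries lay above all 3 controls, a 1.56-fold rise (log2 0.64, SE 0.18, edgeR adjusted p = 0.0476). This call was lost without control 1, control 3, BAL101553 1 or BAL101553 3, with adjusted p of 0.104 to 0.134, and held without control 2 or BAL101553 2.

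The P-glycoprotein genes gave lower values under BAL101553 that did not pass the test. Abcb1a was at 36.9, 22.7 and 35.1 CPM in the controls and 23.9, 12.4 and 20.999 in the BAL101553 libraries, with a log2 difference of -0.72 (SE 0.27, edgeR adjusted p = 0.107). Abcb1b was at 75.0, 52.0 and 70.7 CPM in the controls and 53.9, 34.9 and 54.4 in the BAL101553 libraries, a log2 difference of -0.46 (SE 0.20, edgeR adjusted p = 0.151). Both genes overlapped between the groups: control 2, the lowest control, lay below BAL101553 1, and BAL101553 2 was the lowest of the 6 libraries. DESeq2 called Abcb1a (adjusted p = 0.0366) and not Abcb1b (adjusted p = 0.0959). With the counts of both genes added, so that the split of shared reads does not matter, the log2 difference was -0.54 (SE 0.22, edgeR adjusted p = 0.125). The Abcb1a part of the pair per kilobase was 27.4 to 30.0% in control and 23.4 to 27.7% in BAL101553 libraries.

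The other pumps did not pass. Abcg2 was at 55.6, 41.5 and 54.4 CPM in the controls and 42.5, 30.9 and 52.2 in the BAL101553 libraries (log2 -0.27, SE 0.20, edgeR adjusted p = 0.378). Control 2 and BAL101553 2 were again the lowest of their groups. Abcc1 reached 186, 282 and 220 CPM in the controls and 304, 172 and 224 in the BAL101553 libraries, a log2 difference of 0.03 (SE 0.22, edgeR adjusted p = 0.933) whose sign changed with the library left out. Abcc4 stood at 73.9, 54.4 and 54.9 CPM against 51.9, 57.3 and 56.4 (log2 -0.14, SE 0.14, edgeR adjusted p = 0.504), with control 1 the high library. Abcc10 (MRP7), which transports taxanes among other drugs, was higher in all 3 BAL101553 libraries, at 5.25, 3.83 and 3.28 CPM in control and 5.68, 5.52 and 6.98 in BAL101553, without passing (log2 0.56, SE 0.23, edgeR adjusted p = 0.132).

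**Figure D3:**
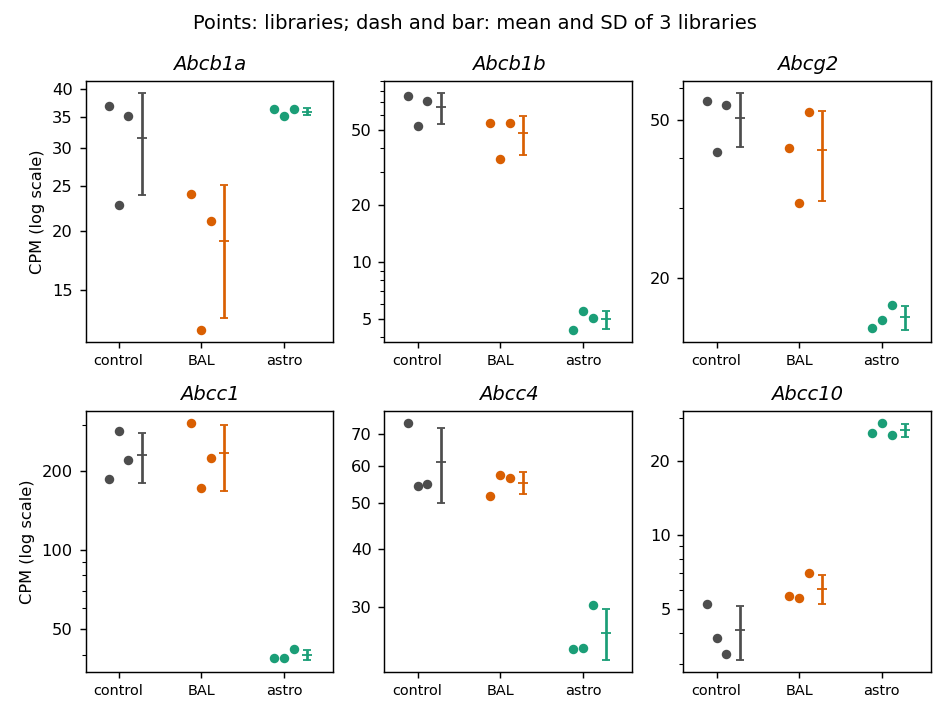
CPM of 6 efflux pump genes on log axes, with points for the 3 control, 3 BAL101553 and 3 astrocytes-labelled libraries and a dash and bar for the mean and SD. Abcb1a and Abcb1b are lowest in BAL101553 2 among the tumor libraries, at 12.4 and 34.9, and Abcb1b falls to between 4.38 and 5.48 in the libraries labelled astrocytes while Abcb1a stays between 35.1 and 36.3.

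Of 15 genes of drug handling outside the family (nuclear receptors of the xenobiotic response, organic anion and cation carriers and conjugating enzymes) 9 were tested and 1 was higher and 1 lower. Gstm1, a glutathione transferase, was at 24.2, 41.4 and 33.8 CPM in the controls and 49.4, 51.8 and 56.4 in the BAL101553 libraries, a 1.59-fold rise (edgeR adjusted p = 0.0442). Mvp, the major vault protein, fell from 165, 139 and 164 CPM to 102, 119 and 122 (log2 -0.44, edgeR adjusted p = 0.0381). The groups did not overlap for either gene.

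Abcd2 gave the call that held most often. It encodes a peroxisomal half-transporter of very-long-chain and polyunsaturated fatty acyl-CoA, and lies at chr15:91145871-91191799 on the minus strand. Its level was 2.83, 4.02 and 3.75 CPM in control 1, 2 and 3 and 11.4, 8.25 and 10.8 in BAL101553 1, 2 and 3. The lowest BAL101553 library lay above the highest control, a 2.88-fold rise (log2 1.53, SE 0.21, edgeR adjusted p = 0.00857), and the call held with each of the 6 libraries left out in turn (adjusted p of 0.00958 to 0.0446). With 1 library left out of each group it held in 3 of 9 fits. Abcd3, another peroxisomal half-transporter, was at 47.6 to 51.9 CPM in control and 49.8 to 58.9 in BAL101553 libraries and did not pass (log2 0.18, SE 0.10, edgeR adjusted p = 0.254). Among 10 other peroxisome genes, of import and fatty acid oxidation, 1 passed: Pex19, a chaperone for peroxisomal membrane proteins, at 79.6, 77.0 and 73.0 CPM in control and 60.5, 52.9 and 60.2 in BAL101553 libraries (log2 -0.40, edgeR adjusted p = 0.0297).

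The lipid transporters Abca8b, Abca8a, Abca9, Abca6 and Abca5 form a run of 5 genes on the minus strand, from chr11:109932190-109995845 (Abca8b) to chr11:110269369-110337716 (Abca5). Abca8 is known for cholesterol efflux and Abca5 for a lysosomal or endosomal location, and the group as a whole is set apart from other Abca genes by this shared position. Abca5 and Abca8a were picked for their place beside the called genes, after their values were seen. The 250 bases before the RefSeq start of the 4 tested genes of the run (RefSeq, GRCm38.p6, minus strand, 5' to 3') are shown because these neighbors shared a direction, and capitals mark motif matches on either strand.
Abca8b, chr11:109995846-109996095: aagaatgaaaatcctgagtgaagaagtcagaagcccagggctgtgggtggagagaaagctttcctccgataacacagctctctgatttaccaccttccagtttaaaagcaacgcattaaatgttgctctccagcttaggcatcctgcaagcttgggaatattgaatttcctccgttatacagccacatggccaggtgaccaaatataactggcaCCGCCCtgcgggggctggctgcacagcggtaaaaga
Abca8a, chr11:110095938-110096187: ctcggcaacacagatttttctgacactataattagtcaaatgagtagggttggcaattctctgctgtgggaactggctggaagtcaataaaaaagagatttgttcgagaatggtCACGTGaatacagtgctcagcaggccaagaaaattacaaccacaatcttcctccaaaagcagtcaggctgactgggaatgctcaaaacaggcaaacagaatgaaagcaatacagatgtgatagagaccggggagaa
Abca9, chr11:110168154-110168403: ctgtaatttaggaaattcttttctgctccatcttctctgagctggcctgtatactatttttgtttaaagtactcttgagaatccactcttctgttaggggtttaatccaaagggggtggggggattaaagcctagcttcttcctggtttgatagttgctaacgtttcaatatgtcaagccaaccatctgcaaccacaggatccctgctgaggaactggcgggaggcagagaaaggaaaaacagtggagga
Abca5, chr11:110337717-110337966: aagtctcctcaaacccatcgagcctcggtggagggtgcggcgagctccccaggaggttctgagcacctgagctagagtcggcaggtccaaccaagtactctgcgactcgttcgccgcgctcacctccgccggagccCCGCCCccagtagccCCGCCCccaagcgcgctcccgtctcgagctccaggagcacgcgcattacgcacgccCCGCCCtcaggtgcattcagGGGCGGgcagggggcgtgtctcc

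These 4 windows did not resemble each other in composition. The Abca5 window was 69.2% G and C with 25 CpG pairs, and the Abca8b, Abca8a and Abca9 windows 48.8%, 43.2% and 44.4% with 6, 4 and 2, against medians of 52.4% and 6 over the 32851 promoters in the table. On both strands, the GC box letters GGGCGG occurred 4 times in the Abca5 window and 1 time in that of Abca8b, and are found in 32.7% of all promoters of this length. The E-box CACGTG occurred 1 time in the Abca8a window (6.02% of all promoters). CCAAT (33.8% of all promoters), TATAAA (12.4%) and TGANTCA (6.75%) were not found in these 4 windows. A match is a description of the letters only.

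Abca9 had the largest rise of the family. It was at 0.718, 1.02 and 0.337 CPM in control 1, 2 and 3, from 16, 27 and 8 counts, and at 2.94, 6.23 and 3.12 CPM in BAL101553 1, 2 and 3, from 86, 158 and 106 counts. The groups were far apart, with a 5.87-fold rise (log2 2.55, SE 0.47, edgeR adjusted p = 0.0173), and BAL101553 2 was the highest library. Without control 1 or without control 3 the adjusted p was 0.0599 and 0.0648. Abca8b rose 2.36-fold, from 1.44, 2.65 and 1.60 CPM to 4.07, 3.16 and 6.18 (log2 1.24, SE 0.34, edgeR adjusted p = 0.0494), and that call held without control 2 or BAL101553 2 but was lost in the other 4 fits with 1 library left out, with adjusted p of 0.0835 to 0.163.

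The other members of the run gave values in the same direction without passing. Abca8a was at 0.718, 1.10 and 1.01 CPM in the controls and 1.40, 1.85 and 2.86 in the BAL101553 libraries (log2 1.11, SE 0.35, edgeR adjusted p = 0.0690). Abca5 was at 20.9, 15.6 and 18.5 CPM against 31.6, 37.3 and 21.7 (log2 0.73, SE 0.21, edgeR adjusted p = 0.0563). Abca6 had at most 1 count in a control library and 1 to 4 in a BAL101553 library, too few for a test. The coding sequences of Abca8a and Abca8b were 74.4% identical, and 1.89% and 2.46% of their 50-base words were found in other genes; with their counts added the log2 fold change was 1.20 (SE 0.31, edgeR adjusted p = 0.0396).

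In all 4 tested genes of the run the lowest BAL101553 library lay above the highest control, as it did in 10 of the 31 Abc genes and in 20.1% of all genes tested, while 4 of the 31 had all BAL101553 libraries below the controls, against 19.6% of all genes. Of 8 other genes within 500 kb of the run 6 were tested. Their log2 fold changes lay between -0.30 (Fam20a) and 0.11 (Arsg, SE 0.50). None passed, where 14.7% of all genes tested were called, and 6 genes are too few to be set apart from that share. The lowest edgeR adjusted p was 0.137, and 1 gene, Prkar1a, had an unadjusted p under 0.05. Prkar1a and Wipi1 on one side stood at -0.21 and -0.11, and Map2k6, next to Abca5 on the other side, at 0.05. The genes around Abcb1a, Abcb1b and Abcb4 varied more. There 8 other genes within 500 kb were tested, with log2 fold changes between -0.83 (Rundc3b) and 1.81 (9330182L06Rik). By the same test 3 of these 8 passed, all higher: 9330182L06Rik, Adam22 and Slc25a40. Of all genes tested, 8.64% were called higher. The genes are few, and a difference between the 2 loci was not tested.

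**Figure D4:**
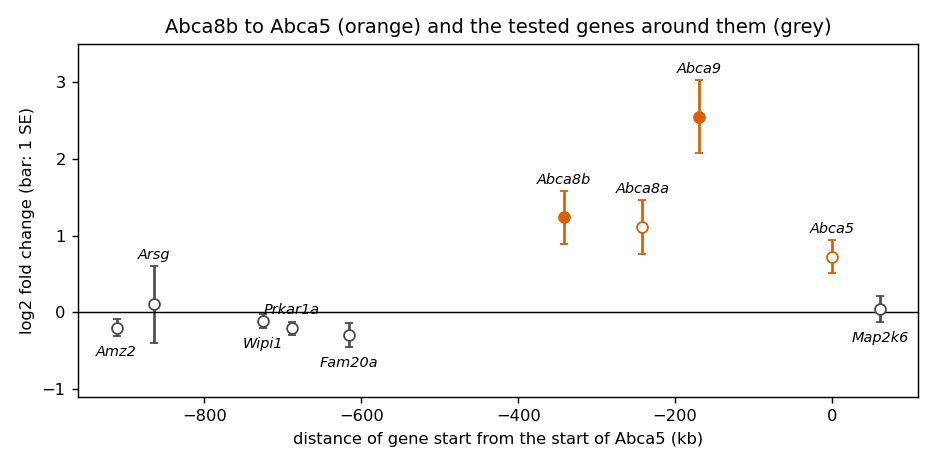
Log2 fold change of BAL101553 against control, with bars of 1 SE, for the tested genes of the chromosome 11 run (orange) and the tested genes around it (grey), by distance in kb of each gene's start from that of Abca5; filled points passed. The 4 Abca genes lie between 0.73 and 2.55 and the 6 others between -0.30 and 0.11.

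Abca3, a phospholipid transporter known from the lamellar bodies of lung alveolar cells, was the 1 member that fell. It was at 44.3, 38.7 and 37.1 CPM in the controls and 24.1, 18.8 and 26.2 in the BAL101553 libraries. The groups did not overlap, and the level fell 1.73-fold (log2 -0.79, SE 0.15, edgeR adjusted p = 0.0170); without control 1 or control 3 the adjusted p was 0.0583 and 0.0612. The gene, at chr17:24351950-24410201 on the plus strand, shares 914 exon bases with D330041H03Rik on the opposite strand, which gave a log2 difference of 0.84 that did not pass (edgeR adjusted p = 0.128). Whether the counting used strand is not given in the sources used here.

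The main cholesterol exporters were not called. Abca1, which loads cholesterol onto apolipoproteins, was at 113, 116 and 111 CPM in the controls and 128, 93.4 and 101 in the BAL101553 libraries (log2 -0.07, SE 0.12, edgeR adjusted p = 0.700). Abca2, a lysosomal sterol transporter of myelinating cells, was at 23.4, 36.6 and 30.3 CPM against 30.0, 20.95 and 34.2 (log2 -0.08, SE 0.21, edgeR adjusted p = 0.823). The signs of both changed with the scaling or the library left out. Abcg1, which passes cholesterol to high-density lipoprotein, was low, with 1.08, 1.93 and 3.28 CPM against 1.50, 3.75 and 4.27 (log2 0.60, SE 0.49, edgeR adjusted p = 0.421), and its relative Abcg4 had 0 to 9 counts in the tumor libraries. Abca7, a phospholipid exporter, was above all controls in all BAL101553 libraries, at 41.5, 48.6 and 52.1 CPM against 77.4, 53.3 and 74.0, without passing (log2 0.53, SE 0.15, edgeR adjusted p = 0.0549). Of 15 genes of sterol efflux control and lipoprotein handling 1 passed, Mylip, a ubiquitin ligase that degrades the LDL receptor and is a target of liver X receptors, which rose 2.15-fold from 6.69, 7.88 and 6.73 CPM to 14.9, 17.3 and 13.5 (edgeR adjusted p = 0.00934).

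**Figure D5:**
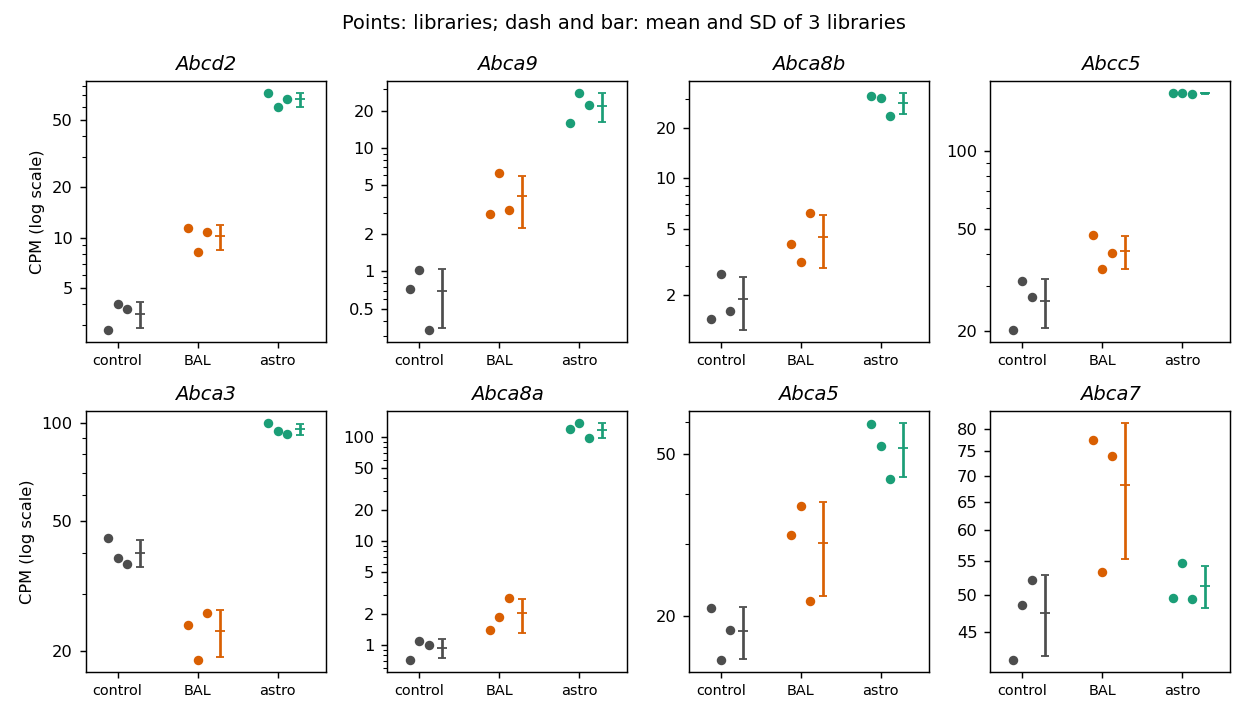
CPM on log axes of the 5 genes called between BAL101553 and control and of Abca8a, Abca5 and Abca7, by library, with a dash and bar for the mean and SD of 3 libraries. The panels were picked with the values known, and in each of the 8 the control and BAL101553 points do not overlap. Of all genes tested, 20.1% were higher and 19.6% lower without overlap. Abca3 is the panel in which BAL101553 is the lower group.

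The genes with the highest levels in the tumor libraries act in translation. Abce1, which splits ribosomes after termination, was at 86.1 ± 6.28 CPM per kilobase in control and 72.9 ± 4.22 in BAL101553 libraries (SD, n = 3), and Abcf2 at 71.3 ± 4.39 and 58.9 ± 0.755. For both genes all BAL101553 libraries were below the controls, with differences that did not pass (log2 -0.23, edgeR adjusted p = 0.128, and log2 -0.27, edgeR adjusted p = 0.0685). Of 7 other genes of ribosome recycling and initiation control none passed by the same test, and 1 had an unadjusted p under 0.05. The mitochondrial members Abcb6, Abcb8 and Abcb10 had log2 differences of -0.21 to 0.28. The Abcb6 value is uncertain, since 90.3% of the 50-base words of its transcript are shared with Gm29253, a gene on the same strand. The ABC genes with other names, Tap1, Tap2 and Cftr, gave 1 call: Tap2, a subunit of the peptide transporter for antigen presentation, rose 1.81-fold (14.9, 23.2 and 27.7 CPM against 31.2, 40.2 and 47.2, edgeR adjusted p = 0.0489).

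Some marker sums of other cell types also differed between control and BAL101553, with single markers going both ways. The sum of 5 pericyte markers was 221 to 269 CPM in control and 352 to 375 in BAL101553 libraries, nearly all of it Pdgfrb, while Kcnj8 and Higd1b had at most 3 counts in every tumor library and Rgs5 fell (log2 -2.36, edgeR adjusted p = 0.0371). The sum of 8 microglia markers was 198 to 335 and 364 to 426 CPM, mostly Tmem119 at 155 to 289 and 308 to 382. The sum of 7 astrocyte markers was 940 to 974 and 686 to 796 CPM, mostly Gja1, with Slc1a3 higher at 38 to 75 counts against 13 to 17 (edgeR adjusted p = 0.0403). Sums for endothelium (987 to 1334 and 733 to 1072), oligodendrocytes (18.7 to 20.6 and 15.3 to 18.9) and choroid plexus (91.8 to 410 and 190 to 286) overlapped, and that of 7 neuron markers was 63.8 to 88.8 and 57.5 to 60.6. By the edgeR test, 1 pericyte marker was higher and 1 lower of 2 tested, 1 astrocyte marker higher and 1 lower of 6, 1 microglia marker lower of 6 and 1 endothelial marker lower of 7, and none of the 4 oligodendrocyte, 4 neuron or 2 choroid plexus markers passed, with 1 of these 10 at an unadjusted p under 0.05. Of all genes tested, 14.7% were called (8.64% higher and 6.09% lower). Each marker list is short, and its calls were not tested against that share. The part of these markers in the Abc values was not tested. Set against their level in the libraries labelled astrocytes, Abca9 stood at 13.4 to 28.3%, Abca8b at 11.1 to 21.7% and Abcd2 at 12.4 to 17.1% in the BAL101553 libraries. The markers did not share 1 level on this scale. In any tumor library the astrocyte markers Slc1a2, Aqp4 and Slc1a3 stood at no more than 0.0991%. Cldn5 and C1qa, of endothelium and microglia, stood at no more than 2.41% and 0.641%, and the neuron marker Snap25 reached 6.99%. Other markers of the same lists were high in the tumor libraries. Gja1 was at 650 to 928 CPM against 1352 to 1605 in the libraries labelled astrocytes, and Aldh1l1 at 20.3 to 44.4 against 223 to 255. Cdh5 (490 to 823 against 16.8 to 22.8) and Tmem119 (155 to 382 against 36.6 to 56.7) were higher in the tumor libraries. So were the neuron marker Stmn2 (6.75 to 29.9 against 3.55 to 4.64) and the sum of the 7 neuron markers (57.5 to 88.8 against 36.7 to 43.9). Against BAL101553, 3 of these 7 were called higher in the libraries labelled astrocytes and 2 lower.

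Astrocytes against BAL101553 compares the 2 groups whose labels carry the drug, and 85.1% of the 15314 genes tested differed (46.3% higher and 38.9% lower by the same edgeR test). Of 39 Abc genes tested 35 were called, 89.7%, with 26 higher and 9 lower in the libraries labelled astrocytes. The median log2 fold change was 1.46, against 0.18 over all genes, a background that other scalings moved to between 0.24 and 0.39. A call in this comparison is therefore not particular to a gene, and the sizes of the differences are described instead. Abcc12, Abcd4 and Abcf3 were among the 4 that did not pass. Of the 39 genes, 31 also had enough counts for a test between the 2 tumor groups. The others, Abcc9, Abcc6, Abcg4, Abcb4, Abca6 and Abcc3 among them, entered this fit only through the libraries labelled astrocytes. Their direction was fixed by the count filter, and they add to the number of higher genes and to the median.

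The efflux pumps went both ways, 4 higher and 4 lower of 8 tested. Abcb1b was the member with the largest fall, at 53.9, 34.9 and 54.4 CPM in the BAL101553 libraries and 4.38, 5.48 and 5.06 in the libraries labelled astrocytes, 9.52-fold lower (edgeR adjusted p = 2.27e-06). Abcb1a was higher there, at 36.3, 35.1 and 36.3 CPM (log2 0.92, SE 0.23, edgeR adjusted p = 0.00511), but not against the control libraries (log2 0.19, edgeR adjusted p = 0.308). Its part of the pair per kilobase was 84.7 to 87.7% in the libraries labelled astrocytes, against 23.4 to 30.0% in the 6 tumor libraries, while the pair added up to 8.28 to 8.43 CPM per kilobase against 10.6 to 24.8. With both genes added the difference was therefore a fall (log2 -0.70, SE 0.19, edgeR adjusted p = 0.00763).

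Abcc1 was 5.80-fold lower in the libraries labelled astrocytes, at 38.8, 39.0 and 41.9 CPM, Abcg2 2.61-fold lower at 15.0, 15.7 and 17.1, and Abcc4 2.06-fold lower at 24.5, 24.7 and 30.3. Each of these 3 ranges lay below all tumor libraries. Abcc5 was 4.13-fold higher at 167, 168 and 166 CPM and Abcc10 4.43-fold higher at 25.9, 28.6 and 25.5. Abcc3 was higher too, at 5.92, 11.9 and 10.2 CPM, but its size is uncertain: it had 15, 3 and 4 counts in the BAL101553 libraries, and the log2 value of 5.22 became 6.25 without BAL101553 1 and lay between 4.84 and 5.46 with 1 of the other libraries left out. Abcc2, a pump of the liver canalicular membrane, had at most 2 counts in any library.

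Sterol and phospholipid transporters were higher in 13 of 14 tested, where 46.3% of all genes tested were higher. Some of them, such as Abca6, Abcb4 and Abcg4, entered the test only through their counts in the libraries labelled astrocytes, which fixed their direction. Abca2 was the most abundant member per length there, at 179 ± 22.2 CPM per kilobase (SD, n = 3), and its level of 1462, 1601 and 1247 CPM was 51.0-fold that of the BAL101553 libraries. Abca8a was 57.3-fold higher at 119, 135 and 98.1 CPM, Abcg1 36.8-fold at 113, 130 and 105, and Abca1 2.04-fold at 235, 225 and 192. The same libraries held the oligodendrocyte and astrocyte marker sums given above, whose part in these levels was not tested. Abca7 was the exception, at 49.5, 54.7 and 49.3 CPM (log2 -0.40, SE 0.15, edgeR adjusted p = 0.0339), a call that held in only 6 of 15 alternatives. Against control instead of BAL101553 its value was 0.12 (edgeR adjusted p = 0.286).

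Several members were close to absent from the tumor libraries. Abcc9, the sulfonylurea receptor SUR2 of ATP-sensitive potassium channels, had 1, 3 and 2 counts in the BAL101553 libraries and 2445, 2985 and 2232 in the libraries labelled astrocytes, a ratio of 1286 (95% exact Clopper-Pearson interval 590 to 3505, counting error only). Kcnj8 and Kcnj11 are channel subunits that pair with sulfonylurea receptors. Kcnj8 had 2, 0 and 0 counts in the BAL101553 libraries and 913, 1062 and 859 in the libraries labelled astrocytes. Kcnj11 had 0, 1 and 0 against 32, 39 and 30. Both entered the fit only through the libraries labelled astrocytes, which fixed their direction. Kcnj8 is also 1 of the 5 pericyte markers, of which 4 were higher and 1, Pdgfrb, lower: they summed to between 954 and 1090 CPM in the libraries labelled astrocytes against 352 to 375 in the BAL101553 libraries, with Vtn at 583 to 682 CPM against 0.118 to 0.410 and Higd1b at 10.3 to 13.3 against 0 counts. The 5 choroid plexus markers summed to between 1797 and 4085 CPM against 190 to 286, with 4 higher and 1 lower. The part of these cells in the level of Abcc9 was not tested. Abcg4, a sterol transporter of neurons and glia, had 4, 0 and 9 counts against 755, 616 and 577 (ratio 151, interval 88.0 to 284), Abcb4, the phosphatidylcholine flippase beside Abcb1b, 3 against 486 (163, interval 55.5 to 794) and Abca6 9 against 926 (104, interval 54.3 to 227). Single libraries moved 2 of these values: the fitted log2 value of Abcg4 went from 7.22 to 8.18 without BAL101553 3, and that of Abcb4 from 7.19 to 8.03 without BAL101553 1. Abcc6 had 0 counts against 73, 60 and 65, at least 22.2-fold higher over a floor of 3 counts per library. Abcb9, a lysosomal peptide transporter, was 83.6-fold higher, at 73.5, 58.8 and 66.3 CPM against 0.684, 0.592 and 1.06.

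The translation genes were the reverse. Abce1 was 4.05-fold lower in the libraries labelled astrocytes, at 67.1, 63.8 and 72.0 CPM against 273, 294 and 263, and Abcf2 3.33-fold lower at 47.3, 43.2 and 44.4 against 149, 152 and 153. Abcf1, which binds initiation factor 2, was 1.90-fold lower, while Abcf3 stood at 55.9 to 58.9 CPM against 52.8 to 67.0 and did not pass (edgeR adjusted p = 0.989). All 7 genes of ribosome recycling and initiation tested beside them were lower as well. Peroxisomal Abcd2 and Abcd3 were 6.57-fold and 2.35-fold higher.

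Of the 50 genes, 14 had at most 3 counts in each of the 6 tumor libraries, and 8 of these had at most 3 in all 9: Abca14, Abca15, Abca16, Abcb5, Abcc2, Abcc8, Abcg5 and Abcg8. Abca16 and Abcb5 had 0 in every library. Abcb11, the bile salt pump, had 5 to 7 counts in the controls, 3 to 4 in the BAL101553 libraries and at most 1 in the libraries labelled astrocytes, and was not tested.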

How the data were processed

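Whole-number counts per gene, not normalized, were deposited for 9 libraries. Per the labels and the methods, the authors made stranded libraries from total RNA, mapped 50 bp reads to mm10 with TopHat, and counted with HTSeq (version 0.6.1 per the submitters' processing notes) and featureCounts; the gene annotation is not given in the sources used here. The 50 genes were taken by symbol, and all matched GENCODE vM21 (GRCm38), which gave positions and exon lengths. In R 4.3.3, edgeR 4.0.16 kept genes by filterByExpr within the 2 groups of a fit, scaled by TMM and applied the two-sided quasi-likelihood test, p-values being adjusted by Benjamini-Hochberg across every gene of the fit; an SE is the fitted log2 value over the root of its F statistic. The test was tested on simulated data. Depth ran from 22919523 to 34013875 counts; genes with 3 counts or fewer were read as at the limit. Every pair of replicates differed by more than sampling noise.

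The members and lists were chosen with earlier results of these data known. Named were called members, the efflux list, Abca1, Abca2, Abca7, Abcg1 and Abcg4, called genes of the related lists, and for astrocytes the 6 largest rises and falls among called members without overlap. Other genes named, such as Abca5, Abca8a, Abcd3 and the neighbors, were chosen after their values were seen. Alternatives were DESeq2 1.42.0, other scalings and count filters, all 9 libraries in 1 model, control as reference, libraries left out, replicate numbers as a block and, added after seeing the data, summed counts of Abcb1a with Abcb1b and Abca8a with Abca8b. Promoters came from RefSeq (GRCm38.p6), which held 38 of the 50 genes. A few members are counted but not reported here by name or in the figures.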

Additional observations from a re-analysis of the deposited data

How the results depend on the processing

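Between BAL101553 and control, 5 Abc genes were called. DESeq2 called 10 (7 higher), 1 model over all 9 libraries 10 and total library size 8; no filter gave 7, upper quartile and DESeq2 size factors 5 each, and at least 10 counts in every library 4, where Abca9 was not tested. With 1 library left out the count ran from 1 to 7, and with 1 left out of each group from 0 to 9. The replicate numbers do not pair the libraries by a label, and same-numbered libraries deviated together with correlations of 0.143, 0.0114 and 0.146 (control 2 was closest to BAL101553 3). With a replicate block 5 were called again, 3 of them shared: Abca8b (edgeR adjusted p = 0.0843) and Abcc5 (0.0886) were lost and Abcb1a (log2 -0.74, 0.0240) and Abcb1b (log2 -0.47, 0.0365) were added; all genes gave 1371 calls in place of 1860. For astrocytes the block gave 34 calls, and all alternatives 27 to 36 against 35. Signs turned for values that never passed: Abca1 (0.012 with total size, -0.24 to 0.019 with libraries left out), Abca2 (0.012, -0.38 to 0.25), Abcc1 (-0.34 to 0.37) and Abcc4 (-0.26 to 0.063). Against control, Abca7 in astrocytes turned to 0.12, and summed with Abcb1b, Abcb1a turned to -0.70. The causes were not tested.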
